A study of Homo sapiens with 9 samples.

Results

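The early response feedback genes described here are IER2, IER3 and IER5, ZFP36 and ZFP36L1, DUSP1, BTG2, and GADD45A, GADD45B and GADD45G. They were taken by gene symbol, and all 10 were found among the 32990 genes of the count table. RNA sequencing of poly(A) RNA was done on 3 human liver cancer cell lines, Hep3B, Huh7 and SNU449, each untreated or treated with THZ531 at 250 or 500 nM. THZ531 binds CDK12 and CDK13 covalently and inhibits them; these kinases phosphorylate the tail of RNA polymerase II during elongation. There was 1 library for each line and dose, 9 in all, so that the lines served as the replicates of a dose. The sample characteristics give 48 h for every treated library, while the treatment protocol states 24 h of treatment for the Hep3B and Huh7 cells but 48 h for those of SNU449, so treatment time and cell line cannot be told apart.

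Early response genes are short genes that growth factors, cytokines and stress switch on within minutes, without new protein synthesis. Most of the genes described here act back on the signals that induce them. ZFP36 and ZFP36L1 bind AU-rich elements in 3′ untranslated regions and recruit the deadenylases that remove such mRNAs. DUSP1 removes phosphate from MAP kinases, and BTG2 binds the same deadenylase complex and restrains proliferation. The GADD45 proteins bind the MAP kinase kinase kinase MAP3K4, PCNA and the kinase CDK1. IER2 is a nuclear protein, IER3 acts in cell survival and IER5 works with the heat shock factor HSF1. Several of the mRNAs carry AU-rich elements themselves and are short-lived.

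Sites of that kind are shown because they are what the ZFP36 proteins read. In GENCODE release 29, the 3′ untranslated region of 7 of the 10 genes held the heptamer TATTTAT on the sense strand, against 33.6% of 12840 genes. The longer nonamer TTATTTATT, which contains the heptamer, was present in 4 of the 10, namely IER5, ZFP36, ZFP36L1 and DUSP1, against 8.7% of all genes. Among the 7182 genes whose 3′ untranslated region was as long as those of the 10, the shares were 32.9% and 7.3%. IER2, GADD45B and GADD45G held no ATTTA pentamer at all, whereas IER3 held 8.14 per kb. A site from each of the 7 genes, with the nonamer where the gene has it, follows as DNA, 5′ to 3′, with the heptamer in capitals.
IER3: gtgtacgtaaTATTTATtttaacttat
IER5: ttcctttattTATTTATttatttaatt
ZFP36: atgacgacttTATTTATtctaatatga
ZFP36L1: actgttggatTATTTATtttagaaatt
DUSP1: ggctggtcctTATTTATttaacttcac
BTG2: aatgaagagcTATTTATatatattatt
GADD45A: catgaaaagtTATTTATgctataaatt

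Promoter sequences from RefSeq (GRCh38.p14, 250 bases before to 50 after the start) matched 8 of the 10 genes with 9 windows, ZFP36L1 having a pair of starts. A TATAA on the sense strand between positions -45 and -15 was present in IER5, ZFP36, DUSP1, GADD45B and GADD45G, 5 of the 9 windows, against 4.25% of 35116 windows. The cyclic AMP response element TGACGTCA, searched on both strands, was present in DUSP1 and at the downstream start of ZFP36L1, against 1.85% of windows. Neither TGANTCA, the AP-1 motif, nor the CArG box was matched in any of the 9, against 7.71% and 1.29% of windows. CCAAT was present in 5 of the 9 and GGGCGG in 4, on either strand, against 34.6% and 45.0%. The 180 bases before the start are shown on the gene's strand for 3 genes with different responses in the text that follows, with TATAA and TGACGTCA in capitals. DUSP1 lies at chr5:172771196-172771375 on the minus strand, GADD45B at chr19:2475947-2476126 on the plus strand and BTG2, which holds neither motif, at chr1:203305339-203305518 on the plus strand.
DUSP1: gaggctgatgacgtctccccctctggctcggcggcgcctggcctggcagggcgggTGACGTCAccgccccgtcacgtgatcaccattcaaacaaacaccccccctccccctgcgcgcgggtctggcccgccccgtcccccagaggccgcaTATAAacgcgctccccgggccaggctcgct
GADD45B: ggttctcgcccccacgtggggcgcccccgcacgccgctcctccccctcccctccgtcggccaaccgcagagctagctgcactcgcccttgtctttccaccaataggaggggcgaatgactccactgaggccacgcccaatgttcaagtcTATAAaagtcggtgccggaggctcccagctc
BTG2: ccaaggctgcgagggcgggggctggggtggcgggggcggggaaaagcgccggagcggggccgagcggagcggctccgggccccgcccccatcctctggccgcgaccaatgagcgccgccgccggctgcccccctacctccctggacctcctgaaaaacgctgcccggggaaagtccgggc

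Library totals ran from 5701981 counts in Huh7 at 500 nM to 20657610 in the Hep3B control. Levels are given as CPM, the count scaled to library size, after TMM normalization, and as RPKM, which also divides by exon length, where genes are compared with each other. Mitochondrial transcripts took 3.85% to 4.32% of counts in the 3 controls, 8.14% to 13.1% in the treated Hep3B and Huh7 libraries, and 4.34% and 4.47% in treated SNU449. All 7 hepatocyte markers were present in Hep3B and Huh7, where their summed level was 17810 to 83440 CPM and was higher in the treated libraries of each line than in its control. In SNU449 the same markers summed to 5.37 to 6.53 CPM, with TTR at 0 in 2 of the 3 libraries. The 6 mesenchymal markers summed to 2536, 4622 and 5689 CPM in Hep3B and 7744, 10290 and 20170 in Huh7, against 6107 to 7183 in SNU449, and the 4 epithelial markers to 2948, 9335 and 10710 in Hep3B and 4460, 7024 and 10130 in Huh7, against 445.2 to 536.4. The 3 fibroblast markers summed to 21.2, 24.9 and 33.3 CPM in Hep3B and 71.9, 121.9 and 216.7 in Huh7, with DCN at 0 in 3 of the 4 treated libraries, and to at most 0.363 in SNU449; the 3 endothelial markers summed to at most 3.51 in any library. The part of the mitochondrial share or the marker levels in the results was not tested.

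Together the 10 genes were many times higher in the treated than in the untreated libraries of Hep3B and Huh7, and stayed near their untreated level in SNU449. Their summed level was 325 CPM in the Hep3B control, 2493 at 250 nM and 4294 at 500 nM. In Huh7 the sums were 362.3, 2242 and 7243 CPM. In SNU449 they were 656.8, 675.4 and 649.1 CPM, so that SNU449 had the highest sum of the 3 untreated lines and the lowest of the treated ones.

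**Figure D1:**
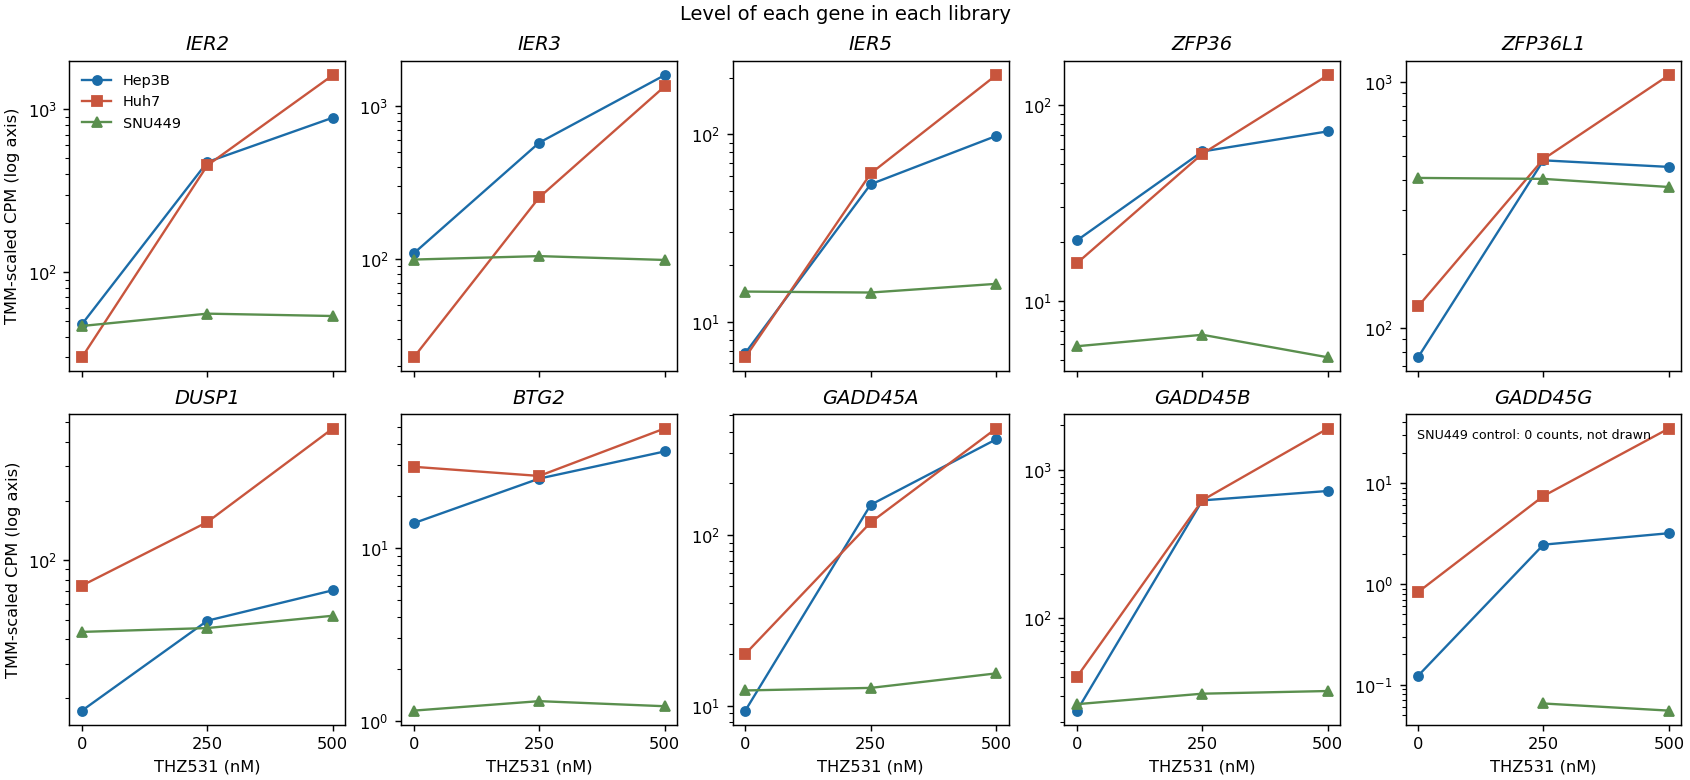
TMM-scaled CPM of each gene (log axis, a separate scale for each panel) in each of the 9 libraries by THZ531 dose; each point is 1 library and lines join libraries of a cell line. Both treated libraries of Hep3B and of Huh7 lie above their control except for BTG2 in Huh7, at 29.4, 26.0 and 48.9 CPM. The share of all tested genes that do so was not computed. SNU449 stays flat, and its control, with 0 counts of GADD45G, is not drawn in that panel.

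IER2 (chr19:13150415-13154908, plus strand) was measured at 48.0 CPM in the Hep3B control, 474.9 at 250 nM and 888.6 at 500 nM. Its levels in Huh7 were 30.0, 453.0 and 1621 CPM, and in SNU449 46.8, 55.7 and 53.8 CPM. IER2 was the only one of the 10 whose lowest treated library, of any line, lay above its highest control; 1.47% of tested genes showed this. IER3 (chr6:30743199-30744554, minus strand) had 109.5, 577.4 and 1592 CPM in Hep3B and 23.0, 253.6 and 1344 CPM in Huh7. In SNU449 it had 99.7, 105.0 and 99.1 CPM. IER3 in Huh7 therefore went from the lowest of the 3 untreated levels to 1344 CPM against 1592 in Hep3B at 500 nM, though at 250 nM it was still well below Hep3B. Its rank by RPKM among tested protein-coding genes in Huh7 went from 2068 untreated to 59 at 500 nM. IER5 (chr1:181088712-181092899, plus strand) had 6.82, 54.2 and 97.9 CPM in Hep3B, and 6.47, 61.8 and 206.5 CPM in Huh7. In SNU449 IER5 had 14.5, 14.3 and 15.9 CPM, a higher untreated level than in the other lines and one that the treated libraries kept.

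ZFP36, known as tristetraprolin (chr19:39406813-39409412, plus strand), had 20.4, 58.0 and 73.4 CPM in Hep3B and 15.6, 56.4 and 142.2 CPM in Huh7. Its SNU449 levels were 5.86, 6.71 and 5.15 CPM. ZFP36L1 (chr14:68787660-68796253, minus strand) had 75.9, 479.5 and 450.9 CPM in Hep3B and 122.1, 485.3 and 1064 CPM in Huh7. In SNU449 it was already at 406.7 CPM without treatment, with 403.1 and 373.6 CPM at the doses. The untreated SNU449 level of ZFP36L1 thus lay near the 250 nM level of the other lines, while ZFP36 was low there. Per length, ZFP36 made up 40.8% of the summed RPKM of the pair in untreated Hep3B, 24.7% in untreated Huh7 and 3.57% in untreated SNU449.

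DUSP1, a dual-specificity phosphatase (chr5:172768090-172771195, minus strand), had 17.4, 49.5 and 70.6 CPM in Hep3B. Its levels in Huh7 were 74.6, 156.5 and 465.8 CPM, and in SNU449 43.5, 45.5 and 52.5 CPM. All 6 treated libraries lay above the control of their line, although both treated Hep3B libraries lay below the untreated Huh7 library. BTG2 (chr1:203305491-203309602, plus strand) had 13.9, 25.1 and 36.0 CPM in Hep3B, and 29.4, 26.0 and 48.9 CPM in Huh7. SNU449 held only 19, 20 and 22 counts of BTG2. BTG2 was the one gene of the 10 with a treated Hep3B or Huh7 library below the control of its line. Scaled to total counts instead of by TMM, its Huh7 level at 500 nM was also below the control, at 31.7 against 36.8 CPM.

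GADD45A (chr1:67685061-67688338, plus strand) had 9.35, 149.8 and 361.8 CPM in Hep3B and 20.1, 118.2 and 418.8 CPM in Huh7. In SNU449 it had 12.3, 12.7 and 15.4 CPM. GADD45B (chr19:2476122-2478259, plus strand) had 23.8, 622.0 and 719.6 CPM in Hep3B and 40.3, 624.0 and 1897 CPM in Huh7, and 26.4, 31.0 and 32.3 CPM in SNU449. Both genes had like untreated levels in the 3 lines and separated on treatment. GADD45G (chr9:89605013-89606555, plus strand) was scarce, with 3, 29 and 29 counts in Hep3B, 15, 57 and 129 in Huh7, and 0, 1 and 1 in SNU449. For SNU449 no fold is given, since all 3 libraries lay under a floor of 3 counts. In Hep3B the log2 ratio of GADD45G to the control was 3.28 at 250 nM and 3.64 at 500 nM, with 95% counting intervals of 2.63 to 6.68 and 3.01 to 7.06 (exact, counting error only).

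**Figure D2:**
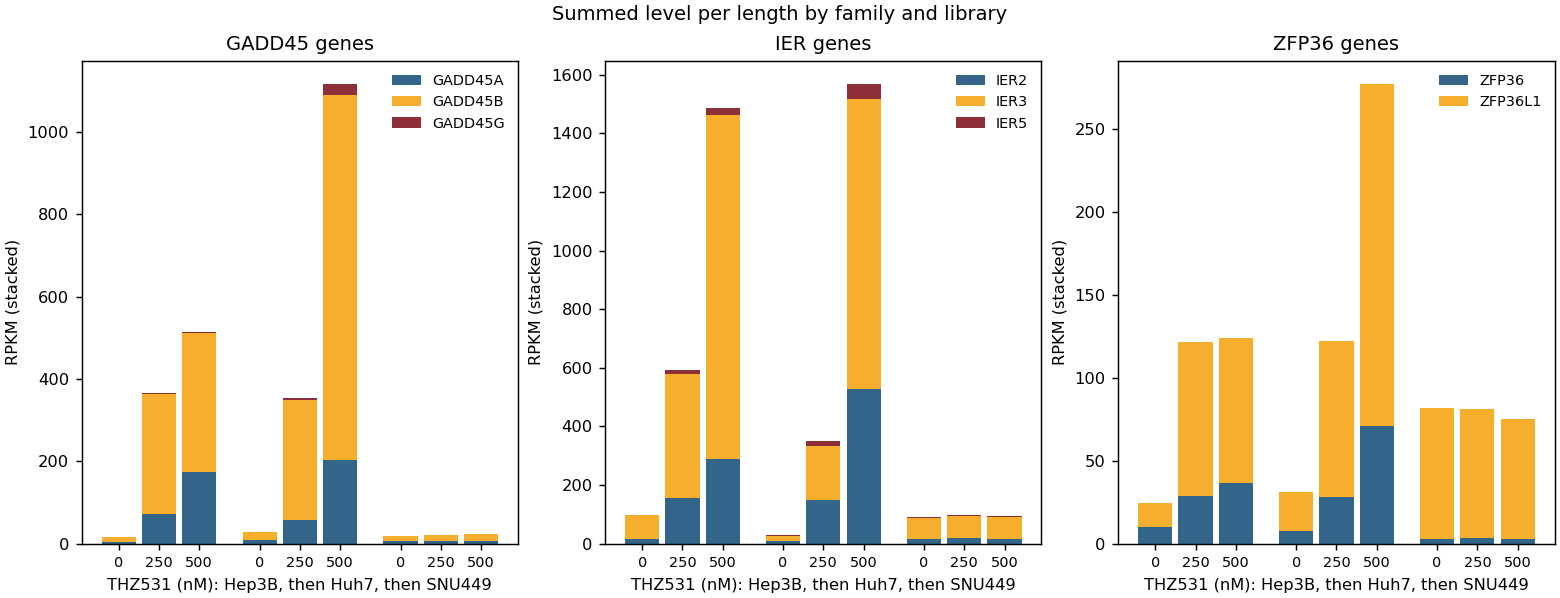
Stacked RPKM of the GADD45, IER and ZFP36 genes in each library, with Hep3B, Huh7 and SNU449 from left to right and dose in nM under each bar. GADD45B and IER3 make up most of their families in every library, and ZFP36L1 of the ZFP36 pair; the GADD45 sum goes from 15.8 to 513.8 RPKM in Hep3B and from 29.2 to 1116 in Huh7, against 18.3 to 22.6 in SNU449.

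Per length, GADD45B supplied 64.6% to 82.3% of the summed GADD45 RPKM in all 9 libraries, and GADD45G at most 2.36%. Within the IER genes, IER3 supplied 53.5% to 82.4% and IER5 at most 5.47%. In untreated cells the order by RPKM in Hep3B was IER3 at 80.7, IER2 at 15.6, ZFP36L1 at 14.7, GADD45B at 11.2, ZFP36 at 10.1, DUSP1 at 8.60, BTG2 at 5.04, GADD45A at 4.52, IER5 at 1.63 and GADD45G at 0.093. In untreated Huh7 DUSP1 led at 36.9 RPKM, and in untreated SNU449 ZFP36L1 at 78.8 was followed by IER3 at 73.5. With 1 control per line there is no spread by which to separate neighbours in these orders.

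The dose comparison asked whether the genes changed with THZ531 over the lines as a whole. At 500 nM against control, with the line as a block, 4 of the 10 rose and none fell in edgeR's quasi-likelihood test (adjusted p under 0.05), against 3.45% of the 15479 tested genes that rose. GADD45G rose by 4.99 ± 0.61 on the log2 scale (SE, n = 3 lines, adjusted p = 0.0010), a size that rests on controls of 3 counts in Hep3B and 15 in Huh7. It passed the filter on low counts mainly through treated libraries, so it could hardly have been called lower. With 0, 1 and 1 counts in SNU449, its estimate and p rest in effect on Hep3B and Huh7, unlike those of the other genes. GADD45A rose by 3.21 ± 0.78 (adjusted p = 0.0361), IER5 by 2.88 ± 0.73 (adjusted p = 0.0438) and DUSP1 by 1.65 ± 0.39 (adjusted p = 0.0349). The other 6 had positive estimates that did not pass, from 0.81 ± 0.30 for BTG2 (adjusted p = 0.108) to 3.38 ± 0.95 for GADD45B (adjusted p = 0.0592). The median change of the 10 was 3.05, against -0.05 for all tested genes. All 10 had an unadjusted p under 0.05, as did 28.9% of tested genes. Estimates are averages over lines with unlike responses, and the number called turned, for the 10 as for all genes, on which libraries entered. It was 0 without the Huh7 500 nM library, without Hep3B or without Huh7, where 0.0259% to 0.175% of tested genes rose, and 1 without the Hep3B control, the Hep3B 500 nM library or the Huh7 control, where 0.23% to 1.25% rose. It was 9 without the Hep3B 250 nM library, where 6.6% rose, and 10 without the SNU449 control, the SNU449 500 nM library or all of SNU449, where 14.8% to 22.7% rose. With DESeq2 size factors IER5 (adjusted p = 0.0648) and GADD45A (adjusted p = 0.0563) did not pass, and with the 6 libraries of the comparison alone IER5 (adjusted p = 0.0542) and DUSP1 (adjusted p = 0.091) did not.

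At 250 nM, GADD45G alone rose, by 3.73 ± 0.61 on the log2 scale (SE, n = 3 lines; edgeR adjusted p = 0.0125), 1 of the 10 against 1.06% of tested genes. Here too its estimate and p rest in effect on Hep3B and Huh7, as each SNU449 library held 1 count or fewer. The limit set by the filter on low counts holds for it here as well. The other estimates ran from 0.30 ± 0.31 for BTG2 to 2.59 ± 0.91 for GADD45B, and 7 of the 10 had an unadjusted p under 0.05, against 17.6% of tested genes. GADD45G did not pass without the Hep3B control, either treated Hep3B library, the Huh7 control, Hep3B or Huh7, nor on the 6 libraries alone (adjusted p = 0.304), whereas 9 of the 10 passed without the SNU449 control or without SNU449, where 17.7% and 15.6% of tested genes rose. Both doses were compared with the same 3 controls.

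From 250 to 500 nM none of the 10 passed in edgeR over all 9 libraries, against 0% of tested genes, and none passed in DESeq2. At an unadjusted p under 0.05 there were 3, namely IER3 (1.67 ± 0.72), DUSP1 (0.84 ± 0.38) and GADD45G (1.26 ± 0.51), against 2.19% of tested genes. On the 6 treated libraries alone IER3 (1.28 ± 0.28, adjusted p = 0.00414) and GADD45A (1.16 ± 0.26, adjusted p = 0.00585) passed, where 0.318% of tested genes rose. The same pair passed without the SNU449 control, where 0.192% rose. Within lines the step differed in form. In Huh7 all 10 were higher at 500 than at 250 nM, with log2 ratios from 0.91 for BTG2 to 2.41 for IER3, where 47.6% of tested genes were higher. In Hep3B 9 of the 10 were higher, where 48.5% of tested genes were, but the ratios ran from -0.09 for ZFP36L1 and 0.21 for GADD45B to 1.27 for GADD45A and 1.46 for IER3. The counting interval for ZFP36L1 was -0.15 to -0.03, below 0, and that for GADD45B was 0.16 to 0.26. In SNU449 4 of the 9 genes with a ratio were higher, where 53.3% of tested genes were. These ratios compare single libraries and have no replicate check.

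**Figure D3:**
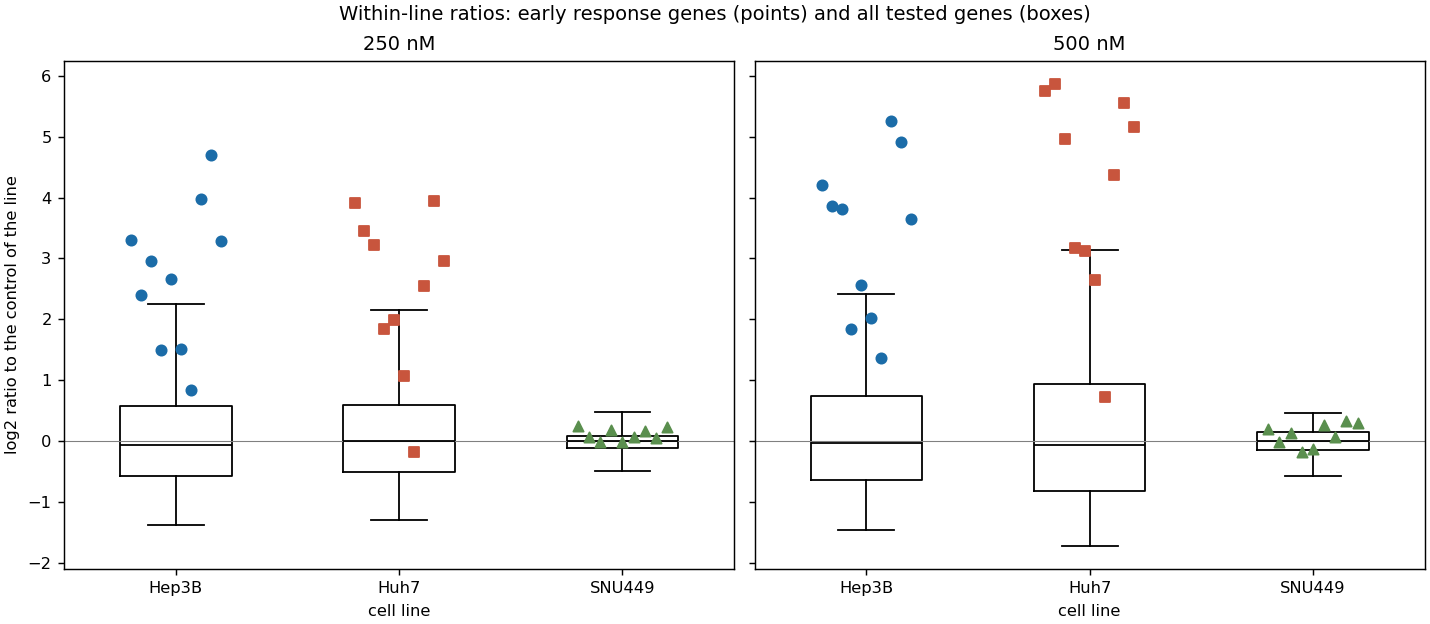
Log2 ratio of each treated library to the control of its line, for the early response genes (points) and all 15479 tested genes (boxes: median and quartiles; whiskers: 5th and 95th percentiles). At 500 nM all 10 genes lie above 0 in Hep3B and Huh7, with medians of 3.73 and 4.67, against -0.03 and -0.07 for all tested genes. The 9 genes drawn for SNU449 lie between -0.18 and 0.33.

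Relative to their own control, 9 of the 10 were at least 2-fold higher at 250 nM in Hep3B and also in Huh7, where 15.9% and 16% of tested genes were. At 500 nM the numbers were 10 in Hep3B and 9 in Huh7, against 18.6% and 24% of tested genes. In SNU449 none of the 9 genes with a ratio was at either dose, where 0.756% and 0.956% of tested genes were. Of the 9 genes with more than 3 counts in SNU449, 4, namely IER2, DUSP1, GADD45A and GADD45B, were higher than the control of their line in all 6 treated libraries, against 9.41% of tested genes. Within Hep3B and Huh7, the lowest of the 4 treated libraries lay above the higher control for 8 genes, against 17.4% of tested genes, and DUSP1 and BTG2 were the exceptions. Scaling to total counts lowered the median ratio of all tested genes to -0.46 and -0.58 in Hep3B and to -0.48 and -0.95 in Huh7 at 250 and 500 nM, so the changes here are relative to the bulk of genes; of the 10, BTG2 in Huh7 at 500 nM turned from 0.73 to -0.21 under it.

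Within each line, both treated libraries were compared with the line's control, the doses standing in as replicates and the spread being pooled over lines. In Hep3B 9 of the 10 rose, all but BTG2 (1.14 ± 0.41, adjusted p = 0.078), against 9.82% of tested genes, and none fell, against 6.72%. The changes that passed ran from 1.69 ± 0.49 for ZFP36 (adjusted p = 0.0372) to 4.81 ± 0.67 for GADD45B (adjusted p = 0.00221), with GADD45A at 4.77 ± 0.82 (adjusted p = 0.00505). In Huh7 the same 9 rose, against 13.3% of tested genes, and none fell, against 6.04%. The changes ran from 2.06 ± 0.57 for DUSP1 (adjusted p = 0.0268) to 5.12 ± 1.0 for IER3 (adjusted p = 0.00688), with IER2 at 5.11 ± 0.79 (adjusted p = 0.00266). BTG2 in Huh7 was at 0.33 ± 0.40 (adjusted p = 0.592), and at -0.42 with scaling to total counts. In SNU449 none passed, against 0% of tested genes. There the estimates ran from -0.07 ± 0.43 for ZFP36L1 to 0.26 ± 0.53 for GADD45B, none of the 9 had an unadjusted p under 0.05, where 68 tested genes (0.439%) had, and DESeq2 called none. The pooled spread holds the dose differences of Hep3B and Huh7, so this test could miss small changes in SNU449. Counting intervals of the SNU449 ratios at 250 and 500 nM lay above 0 for IER2 (0.11 to 0.39 and 0.07 to 0.34) and GADD45B (0.04 to 0.43 and 0.11 to 0.48). For ZFP36L1 the interval at 500 nM lay below 0 (-0.17 to -0.07). The Hep3B number was 0 without either treated Hep3B library, as it was for all tested genes without the 250 nM library, while 0.641% of them rose without the 500 nM library. With scaling to total counts ZFP36 (adjusted p = 0.0889) and DUSP1 (adjusted p = 0.082) did not pass in Hep3B, nor DUSP1 in Huh7 (adjusted p = 0.071), and with DESeq2 size factors DUSP1 did not pass in Hep3B (adjusted p = 0.0605).

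**Figure D4:**
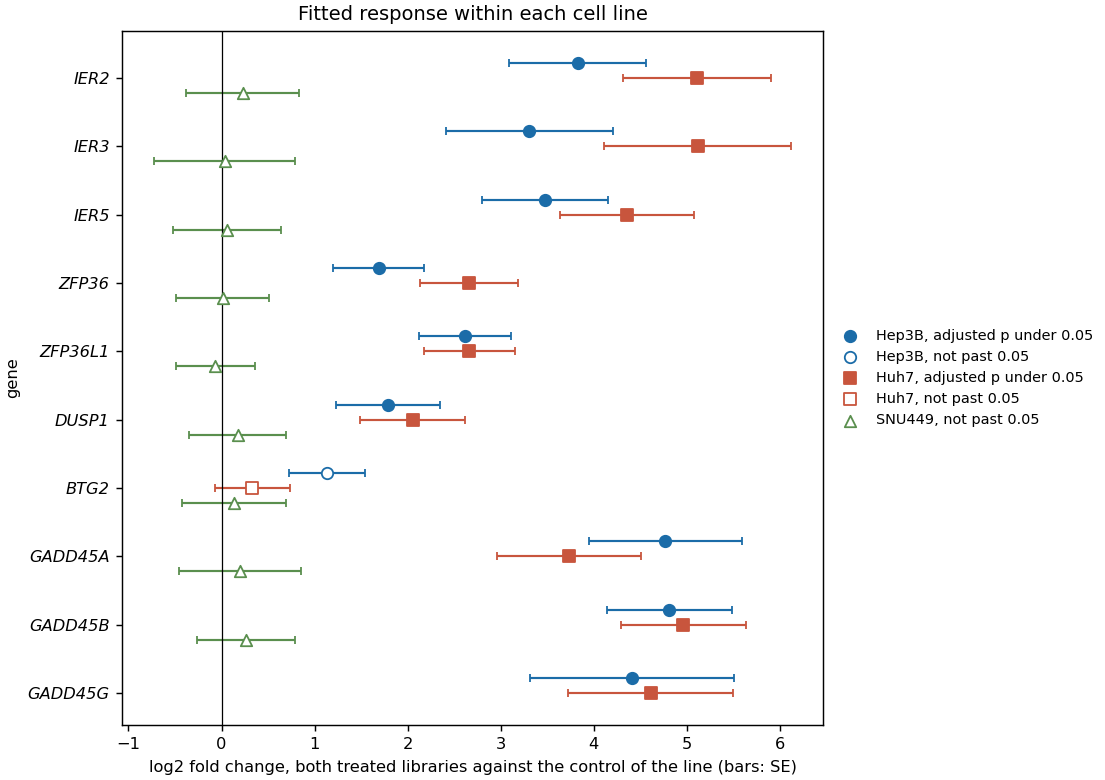
Fitted log2 fold change of both treated libraries against the control, by gene and cell line (bars: SE); filled symbols passed an adjusted p of 0.05 in edgeR. Hep3B and Huh7 overlap for most genes and lie right of SNU449, though for BTG2 the bar of Huh7 overlaps that of SNU449. GADD45G in SNU449 is not drawn.

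The difference between lines was then tested itself. Over Hep3B and Huh7, the response exceeded that of SNU449 in 6 of the 9 genes that could be tested, against 2.55% of all tested genes, and fell short of it in none, against 0.252%. The excess was 4.62 ± 0.64 on the log2 scale for GADD45B (adjusted p = 0.00878), 4.24 ± 0.74 for IER2 (adjusted p = 0.0169), 4.18 ± 0.93 for IER3 (adjusted p = 0.0381), 4.06 ± 0.80 for GADD45A (adjusted p = 0.0246), 3.86 ± 0.71 for IER5 (adjusted p = 0.0193) and 2.71 ± 0.52 for ZFP36L1 (adjusted p = 0.0234). ZFP36 (2.16 ± 0.59, adjusted p = 0.0701), DUSP1 (1.75 ± 0.62, adjusted p = 0.144) and BTG2 (0.60 ± 0.63, adjusted p = 0.645) did not pass. A test that the 3 responses are equal was passed by IER2 (adjusted p = 0.0445), IER5 (adjusted p = 0.049) and GADD45B (adjusted p = 0.0258), 3 genes against 1.14% of tested genes, and by none of the 10 with DESeq2 size factors. Both numbers were 0 without either treated Hep3B library, as they were for all tested genes, and IER3 did not pass the former with DESeq2 (adjusted p = 0.0612) or its size factors (adjusted p = 0.0607). The test of equal responses gave 5 to 8 of the 10 when any other treated library was left out, where 1.94% to 15.1% of tested genes passed, and with scaling to total counts IER5 did not pass it (adjusted p = 0.0805).

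Between Huh7 and Hep3B no gene of the 10 differed in response, where 0.00646% of tested genes were higher in Huh7. None had an unadjusted p under 0.05, against 6.64% of tested genes, and DESeq2 called none, against 0.22%. With such low shares, none among 10 genes says little about whether the lines respond alike. The extremes were IER3, at 1.81 ± 1.08 in favour of Huh7, and GADD45A, at -1.04 ± 0.91, that is, in favour of Hep3B. Each line's response rests on 1 control.

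Relatives of the 10 held members of either direction. Of 16 genes listed as relatives (other IER, ZFP36, DUSP, BTG and TOB genes, SPRY2, SPRY4 and PPP1R15A), 1 rose at 500 nM over the lines. That was PPP1R15A, which recruits the phosphatase that reverses the integrated stress response (1.61 ± 0.38, edgeR adjusted p = 0.0329). The median of the 16 was 0.40, and 3.45% of all tested genes rose. In Hep3B 7 rose and DUSP16 fell, where 9.82% of tested genes rose and 6.72% fell. In Huh7 5 rose, where 13.3% did, and in SNU449 none passed, where 0% did. IER5L, the closest relative of IER5, had 12.4, 114.4 and 183.0 CPM in Hep3B, 28.4, 215.4 and 538.4 in Huh7, and 30.3, 30.7 and 28.4 in SNU449. It rose in Hep3B (3.59 ± 0.59, adjusted p = 0.00402) and Huh7 (3.73 ± 0.59, adjusted p = 0.00278), and its excess over SNU449 was 3.69 ± 0.60 (adjusted p = 0.0128), close to that of IER5. DUSP16, a phosphatase of JNK, went the other way from DUSP1 in Hep3B, at 113.3, 45.8 and 33.0 CPM.

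Transcription factors of the early response act beside the feedback genes. Of 23 tested, 9 rose at 500 nM over the lines, 15 in Hep3B, 16 in Huh7 and none in SNU449, where 3.45%, 9.82%, 13.3% and 0% of all tested genes rose. Their median was 1.95 at 500 nM. FOS, a subunit of AP-1, had 18, 1616 and 1943 counts in Hep3B, 31, 1352 and 1997 in Huh7, and 3, 3 and 17 in SNU449. Its change at 500 nM was 7.95 ± 0.76 (adjusted p = 0.000351). FOSB, a second AP-1 subunit, rose by 4.57 ± 0.77 (adjusted p = 0.00636) and EGR2, a zinc finger factor, by 5.03 ± 1.01 (adjusted p = 0.0154). EGR2 had 3, 31 and 24 counts in Hep3B, 1, 33 and 34 in Huh7 and 1, 0 and 0 in SNU449, so that the size of its change depends on the prior count.

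Among mRNAs known as targets of ZFP36 proteins, 4 of 14 tested rose at 500 nM, against 3.45% of all tested genes, and none fell, with a median of 1.12; the 4 were the chemokine genes CXCL2, CCL20 and CXCL8 and the cytokine gene TNF. CXCL2 was at 2.21, 7.35 and 33.5 CPM in Hep3B, 0.719, 3.01 and 47.5 in Huh7 and 1.09, 1.43 and 2.05 in SNU449, and rose by 3.87 ± 0.71 (adjusted p = 0.0104). CCL20 rose by 1.78 ± 0.35 (adjusted p = 0.0148), with only 3, 1 and 8 counts in SNU449. TNF had 0 counts in the Hep3B and Huh7 controls, 38 and 27 counts in treated Hep3B, and 13 and 17 in treated Huh7. It passed the filter on low counts only through these treated libraries, so it could hardly have been called lower. Within lines 3 rose in Hep3B, 5 in Huh7 and none in SNU449, where 9.82%, 13.3% and 0% of tested genes did. Those were LIF, PIM1 and TNF in Hep3B, and the same genes with CXCL2 and MYC in Huh7. CCL20 and CXCL8 passed in neither line. In each Hep3B and Huh7 library 1 of 4 immune cell markers reached 1 CPM, so that 1 gene made up nearly all of their sum. PTPRC, the pan-leukocyte marker, was at 0 in the Hep3B control, in Huh7 at 250 nM and in both 500 nM libraries. The sum of the 4 was 71.0, 111.6 and 138.1 CPM in Hep3B and 121.3, 336.0 and 612.1 CPM in Huh7, and its part in the result was not tested.

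Of 23 genes for the partners and substrates of these proteins, none passed at 500 nM in edgeR, and their median was -0.26. Of all tested genes 3.45% rose and 0.724% fell there. CDKN1A, the CDK inhibitor that GADD45 proteins bind, had the smallest p (1.64 ± 0.46, adjusted p = 0.0589). It had 5.19, 19.1 and 20.0 CPM in Hep3B, 2.16, 11.9 and 20.8 in Huh7 and 24.7, 26.1 and 29.2 in SNU449, and passed in Hep3B (1.91 ± 0.40, adjusted p = 0.00988) and Huh7 (2.89 ± 0.45, adjusted p = 0.00263). In Huh7 PCNA, the replication clamp, also rose (1.21 ± 0.38, adjusted p = 0.0425) and MAPK9, which encodes a JNK kinase, fell by 1.21 ± 0.36 (adjusted p = 0.0353). No other of the 23 passed in either line. In Hep3B 9.82% of tested genes rose, and in Huh7 13.3% rose and 6.04% fell.

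Over the 9 libraries, after centring each line, BTG2 followed the mean of the other 9 genes with a Pearson correlation of 0.806, and the remaining 9 genes with 0.975 to 0.997. The 5 genes outside the set whose levels ran most like its mean, among 9065 compared, were IFITM3 (0.9999), RPL37 (0.998), COX4I1 (0.9979), COX8A (0.9976) and PHPT1 (0.9975). Their 500 nM ratios in Hep3B and Huh7 were below the medians of the 10 genes, IFITM3 having 500 nM log2 ratios of 1.99 for Hep3B, 2.44 for Huh7 and 0.10 for SNU449. All points share their libraries and controls, so the correlations are a description of these libraries.

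Antisense genes overlap 3 of the 10, and whether counting used the strand is not stated in the sources used here. Those antisense genes had at most 11 counts for IER2, 58 for IER3 and 2 for DUSP1 in any library.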

How the data were processed

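Poly(A) RNA libraries from 9 samples were analysed. The authors deposited raw read counts per gene; HISAT2, HTSeq and GRCh38 are named in the submitters' processing notes, with versions not given in the sources used here. Libraries were stranded, per the labels. Counts were fitted with edgeR 4.0.16 in R 4.3.3 (TMM, filterByExpr on dose groups, glmQLFit and glmQLFTest, two-sided, Benjamini-Hochberg adjustment over 15479 genes; all 10 members passed the filter). Dose was fitted with cell line as a block (4 residual degrees of freedom), and line responses with 1 baseline and 1 treatment term for each line (3 residual degrees of freedom). The dose groups pair by cell line, as labelled; deviations of same-line libraries from their group means correlated at 0.797 to 0.961. SE is the log2 fold change over the square root of F. Within-line ratios used log2 CPM with a prior count of 2, and intervals are exact binomial (Clopper-Pearson, 95%); reads without molecular identifiers are not independent molecules, so intervals and the floor of 3 counts cover counting error only. RPKM used the union exon length from GENCODE release 29, which placed all 10 genes where the table does. DESeq2 1.42.0, other scalings, no filter, no block, smaller fits and leaving out libraries were tried. Scripts were tested on simulated data.

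No label says that libraries came from separate cultures, so p-values measure only the spread between these libraries. The members and lists were chosen with earlier results of these data known. All 10 genes are named; from the lists of 79 related genes, those with the 3 smallest p-values at 500 nM were candidates for naming, others were chosen after their values were seen, and the 5 genes most like the members (mean log2 CPM of at least 3) were ranked by correlation. Sequences are from RefSeq promoters and GENCODE transcripts.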

Additional observations from a re-analysis of the deposited data

Results flagged for a closer look

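The response to THZ531 differed between cell lines in several of the genes by a test of the difference itself. The test that the 3 lines respond equally gave an adjusted p of 0.0445 for IER2, 0.049 for IER5 and 0.0258 for GADD45B in edgeR. For the Hep3B and Huh7 response minus the SNU449 response, the edgeR adjusted p was 0.0169 for IER2, 0.0381 for IER3, 0.0193 for IER5, 0.0234 for ZFP36L1, 0.0246 for GADD45A and 0.00878 for GADD45B. In each of these 6 genes all 4 treated libraries of Hep3B and Huh7 were above the control of their line. That follows largely from the fitted responses, which used the same libraries, and is no separate support. Treatment time as given in the protocol differed between SNU449 and the other lines, and cannot be told apart from the line.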

How the results depend on the processing

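The number of the 10 genes higher at 500 nM was 4 in the fit as reported, 8 with scaling to total counts, 2 with DESeq2 size factors, 9 with DESeq2, 9 with no filter on low counts and 2 on the 6 libraries of the comparison. In the same order, 3.45%, 4.58%, 2.65%, 7.99%, 6.13% and 0.495% of all tested genes rose. At 250 nM the number of the 10 was 1, and 2 with scaling to total counts, 8 with no filter and 0 on 6 libraries. There 1.06%, 1.73%, 3.24% and 0.00728% of tested genes rose. From 250 to 500 nM the number was 0, and 1 with no filter and 2 on 6 libraries, where 0%, 0.0233% and 0.318% rose. Without the replicate block, that is, ignoring the pairing by line, the numbers at 500 and 250 nM were 0 and 0, as they were for all tested genes. Equal responses between lines were refused for 3 genes, and for 2 with scaling to total counts, 0 with DESeq2 size factors, 5 with DESeq2 and 7 with no filter. The shares of all tested genes were 1.14%, 0.446%, 0.00646%, 4.97% and 3.53%. Leaving out 1 library or line gave 0 to 10 genes at 500 nM, 0 to 9 at 250 nM, 0 to 2 between doses, 0 to 10 in Hep3B, 8 to 9 in Huh7, 0 to 0 in SNU449, 0 to 8 for equal responses, 0 to 8 for Hep3B and Huh7 against SNU449, and 0 to 0 for Huh7 against Hep3B. Over the fits that left out 1 library or line, 0.0259% to 22.7% of tested genes rose at 500 nM. The ranges were 0% to 17.7% at 250 nM and 0% to 0.192% between doses. In the line fits, 0% to 18.7% of tested genes rose in Hep3B, 6.85% to 19.8% in Huh7 and 0% in SNU449. Equal responses were refused for 0% to 15.1% of tested genes. The Hep3B and Huh7 response exceeded that of SNU449 for 0% to 11.1%, and Huh7 differed from Hep3B for 0% to 0.256%. Where a line kept 1 treated library, it was assumed to vary like the others. Scaling to total counts reversed BTG2 at 250 nM (-0.0495), in Huh7 (-0.42) and against SNU449 (-0.0297). Leaving out libraries or lines took BTG2 from -0.0872 to 0.61 at 250 nM and -0.30 to 0.64 in Huh7. Between doses it took ZFP36 from -0.12 to 1.06, ZFP36L1 from -0.25 to 0.92 and GADD45B from -0.17 to 1.62. In SNU449 it took IER3 from -0.00499 to 0.0779, IER5 from -0.0149 to 0.14 and ZFP36 from -0.18 to 0.20. Among the fitted values recomputed, which for Huh7 against Hep3B were those of IER3 and GADD45A, no other changed sign, and the causes were not tested. A prior count of 0.5 moved none of the 87 within-line ratios beyond its counting interval. Scaling to total counts moved 55 of the 87 beyond it. With 1 library per line and dose, a line's response cannot be separated from its only control, and at 3 counts or fewer GADD45G sets a limit in the Hep3B control and in SNU449.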
